A study of Mus musculus with 24 samples.

Results

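*Arntl*, *Npas2*, *Per1*, *Per2*, *Per3*, *Nr1d1*, *Nr1d2*, *Dbp*, *Bhlhe41* and *Ciart* are transcripts of the circadian clock and of its direct output, and these 10 genes were taken by symbol from the 24532 genes of the deposited FPKM table. FPKM is the number of sequenced fragments divided by the length of the transcript and by the total fragments of the library, so that levels of genes can be compared within a library, while a comparison between libraries depends on the scaling. The transcripts were measured by RNA sequencing of liver, inguinal white adipose tissue (iWAT), gastrocnemius muscle (GM) and hypothalamus, with 3 libraries per genotype and tissue and 24 in all. Control (Ctrl) mice were Crif1flox/flox and the liver-specific knockout (LKO) mice were Alb-Cre;Crif1flox/flox, so that both carried the floxed *Crif1* alleles and the genotypes differed by the Cre transgene. The albumin promoter drives this Cre in hepatocytes, and the other tissues were therefore studied in mice with a deletion in the liver. All mice were C57BL/6, 8 weeks old and fed a chow diet. Neither the hour of collection nor a link between tissues of a mouse is given in the labels. The 3 libraries of a group are labelled as separate samples, and the p-values measure the spread between them.

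In the mammalian clock, ARNTL (BMAL1) pairs with CLOCK or NPAS2 and activates genes through E-boxes in their promoters. Among these are the period and cryptochrome genes, whose proteins feed back on the activators, and *Nr1d1* and *Nr1d2* (REV-ERBα and REV-ERBβ), which repress *Arntl* through ROR elements. *Dbp* is a direct output of the same loop and encodes a PAR bZIP factor that binds D-boxes, while BHLHE41 and CIART repress ARNTL-driven transcription. The suprachiasmatic nucleus of the hypothalamus sets the phase of the clocks in peripheral tissues, and feeding and glucocorticoids act on the latter as well. Because these transcripts cycle over the day, a level taken at a single time depends on the phase of the clock as well as on its amplitude.

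The promoters of 3 members whose genotypes did not overlap in at least 1 tissue are shown with the clock elements found in them. They were taken from RefSeq windows on GRCm38.p6, which is the mm10 build of the files, and run 5′ to 3′ from 250 bases before to 50 bases after the annotated start. Windows were given for 9 of the 10 members, all but *Per2*, and 11 windows in all. The capitals mark a ROR element (letters searched ANTAGGTCA) in *Arntl*, the E-box-like letters CACGTT on the reverse strand (printed as AACGTG) in *Nr1d1*, and an E-box (CACGTG) in *Bhlhe41*. Both strands were searched.
Arntl, chr7:113207261-113207560, plus strand: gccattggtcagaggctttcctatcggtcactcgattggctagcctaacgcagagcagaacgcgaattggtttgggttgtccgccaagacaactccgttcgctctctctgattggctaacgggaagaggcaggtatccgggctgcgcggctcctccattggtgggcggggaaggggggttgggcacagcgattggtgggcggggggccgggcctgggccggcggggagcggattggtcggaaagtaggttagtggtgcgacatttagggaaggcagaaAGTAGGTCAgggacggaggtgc
Nr1d1, chr11:98775328-98775627, minus strand: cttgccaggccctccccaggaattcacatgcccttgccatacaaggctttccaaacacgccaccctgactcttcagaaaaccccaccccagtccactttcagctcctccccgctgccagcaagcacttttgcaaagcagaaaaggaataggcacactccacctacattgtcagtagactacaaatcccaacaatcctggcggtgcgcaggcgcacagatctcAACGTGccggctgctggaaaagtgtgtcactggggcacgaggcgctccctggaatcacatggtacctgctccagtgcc
Bhlhe41, chr6:145865371-145865670, minus strand: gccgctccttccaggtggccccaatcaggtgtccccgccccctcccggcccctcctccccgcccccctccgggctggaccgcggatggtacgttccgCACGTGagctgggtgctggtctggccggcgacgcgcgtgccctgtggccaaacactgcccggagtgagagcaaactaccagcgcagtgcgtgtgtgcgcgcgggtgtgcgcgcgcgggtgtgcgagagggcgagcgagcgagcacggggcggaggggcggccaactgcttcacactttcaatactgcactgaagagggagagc
The ROR element of *Arntl* began 28 bases after the start of this window's transcript. These letters occurred in 0.661% of the 32851 mouse promoter windows. CACGTG occurred in 7.15% of the windows and was found in 3 members, in *Bhlhe41* at 153 bases before the start, in *Per1* at 166 bases before it, and in *Ciart* at 3 positions, 116, 58 and 44 bases before it. CACGTT occurred in 4.68% of all windows and, among the members, in *Nr1d1*, where it began 28 bases before the start. A D-box (TTATGTAA or TTACGTAA) occurred in 1.06% of all windows and at 2 positions in *Per3*, 205 and 158 bases before the start. The letters of a cyclic AMP response element (TGACGTCA) were in 1.79% of all windows and in 0 of the 9 members. These matches describe the letters of short windows, and no binding was measured.

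*Crif1*, listed as *Gadd45gip1*, was at 14.6, 12.5 and 13.6 FPKM in the Ctrl livers and at 5.40, 2.0 and 2.51 FPKM in the LKO livers. Its log2 fold change was -1.84 in liver and between -0.22 and 0.02 in the other tissues. Each tissue held its defining markers at 1 FPKM or more in every library. Depth was 4.45 to 8.09 gigabases per library (median 5.19). Muscle markers in iWAT summed to 47.3 to 446.7 FPKM in Ctrl and 28.0 to 695 FPKM in LKO libraries. Pituitary markers in hypothalamus summed to 7.22 to 47.4 FPKM in Ctrl and 123.4 to 574.3 FPKM in LKO libraries. The part of either in the values of the clock genes was not tested. In bulk tissue, fewer cells of a type and less RNA per cell cannot be told apart.

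Among the Ctrl mice, most clock genes differed between tissues in FPKM, while for the activator *Arntl* no difference was called in FPKM and 4 of 6 were after median-ratio scaling. To be called, a difference between a pair of tissues had to reach a 1.5-fold change on the log2(FPKM + 1) scale and an adjusted p under 0.05 (Benjamini-Hochberg) in a limma fit of the 12 Ctrl libraries. Of the 60 combinations of a member and a pair of tissues, 37 were called, a share within the range of all 15320 genes tested. Of the latter, 61.5% were called for iWAT, 51.5% for GM and 75.6% for hypothalamus against liver, 58% for GM and 61.8% for hypothalamus against iWAT, and 71.7% for hypothalamus against GM. All values of this comparison are means ± SD of 3 libraries. *Arntl* was at 13.8 ± 1.09 FPKM in GM, 11.2 ± 1.74 in iWAT, 10.7 ± 0.617 in hypothalamus and 10.3 ± 1.62 in liver, and 0 of its 6 pairs was called. *Npas2*, which can take the place of CLOCK as the partner of ARNTL, was highest in iWAT at 4.68 ± 1.01 FPKM, followed by hypothalamus at 3.15 ± 0.443, liver at 3.00 ± 0.720 and GM at 1.04 ± 0.290. GM was below each of the other tissues, and the others did not differ by the call.

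The period genes, which encode the core repressors, were highest in hypothalamus. *Per1* was at 24.2 ± 2.79 FPKM there, 18.4 ± 2.96 in iWAT, 13.5 ± 0.837 in GM and 4.55 ± 1.03 in liver, and liver was below each of the others. *Per1* in iWAT was called different from neither of its neighbours in this order, while hypothalamus exceeded GM by 0.79 on the log2 scale, a difference of 0.035 (limma adjusted p = 0.836) after median-ratio scaling. *Per2* was at 5.68 ± 0.236 FPKM in hypothalamus, 2.16 ± 0.497 in liver, 1.404 ± 0.750 in iWAT and 0.629 ± 0.208 in GM. Hypothalamus exceeded each of the others, although after median-ratio scaling it was 0.41 above liver and no longer called (limma adjusted p = 0.0869). In FPKM, iWAT was called different from neither liver nor GM, and GM was 0.95 lower than liver on the log2 scale. *Per3* was at 9.22 ± 0.341 FPKM in hypothalamus, 3.55 ± 0.459 in iWAT, 2.13 ± 0.102 in GM and 0.236 ± 0.0725 in liver. All of its pairs were called except GM against iWAT, where the difference of -0.54 had an adjusted p of 0.00011 in limma and did not reach the fold limit.

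The repressors *Nr1d1* and *Nr1d2* were both low in liver. *Nr1d1* was at 40.9 ± 4.32 FPKM in GM, 30.3 ± 12.5 in iWAT, 29.0 ± 1.56 in hypothalamus and 7.83 ± 3.55 in liver, and the 3 other tissues did not differ from each other by the call in FPKM. *Nr1d2* was at 21.9 ± 1.89 FPKM in hypothalamus and 18.5 ± 0.850 in GM, against 5.35 ± 1.43 in liver and 5.30 ± 0.591 in iWAT, and the called pairs were those between the upper and the lower of these sets. *Dbp*, the output gene, was the member called in all 6 pairs. Its level was 33.4 ± 3.86 FPKM in hypothalamus, 7.02 ± 0.841 in GM, 2.39 ± 0.446 in iWAT and 0.344 ± 0.104 in liver. *Bhlhe41* was at 9.70 ± 1.00 FPKM in GM and 8.95 ± 1.42 in hypothalamus, 1.08 ± 0.183 in iWAT and 0.0230 ± 0.0123 in liver, and 5 pairs were called, GM against hypothalamus being the exception. *Ciart* was at 6.995 ± 0.697 FPKM in hypothalamus and under 1 FPKM in every Ctrl library of the other tissues, with 0.784 ± 0.0771 in GM, 0.406 ± 0.161 in iWAT and 0.202 ± 0.0665 in liver.

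The order of tissues depends on how the libraries are scaled to each other. With median-ratio scaling, which sets the typical gene to the same level in each library, 46 of the 60 differences were called in place of 37, with 34 shared, and 8 changed sign. Of all genes, between 47.3% (iWAT against liver) and 67% (hypothalamus against liver) were then called in a pair. *Arntl* then lay lower than in liver by 0.60 in iWAT and by 0.75 in hypothalamus on the log2 scale, with adjusted p values in limma of 0.000486 and 5.34e-05. It was 0.92 higher in GM than in iWAT (limma adjusted p = 1.4e-05) and 1.07 higher in GM than in hypothalamus (limma adjusted p = 2.45e-06), so that GM and liver stood above iWAT and hypothalamus. *Nr1d1* in GM likewise exceeded iWAT by 1.18 (limma adjusted p = 0.00498) and hypothalamus by 1.25 (limma adjusted p = 0.0028). The other calls gained were for *Bhlhe41* in GM over hypothalamus (0.83), *Ciart* in GM over iWAT (0.61) and liver (0.66), and *Per2* in liver over iWAT (0.93), besides *Npas2* and *Nr1d2* below. *Npas2* in hypothalamus against GM lost its call (0.52), with those of *Per1* and *Per2* given above. *Nr1d2* was then lower in iWAT than in liver by 0.64 (limma adjusted p = 0.002) and lower in hypothalamus than in GM by 0.54 (limma adjusted p = 0.0052). The other 4 changes of sign were in *Npas2* for hypothalamus (-0.60) and iWAT (-0.10) against liver, in *Nr1d1* for hypothalamus against iWAT (-0.08) and in *Per1* for GM against iWAT (0.24).

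**Figure D1:**
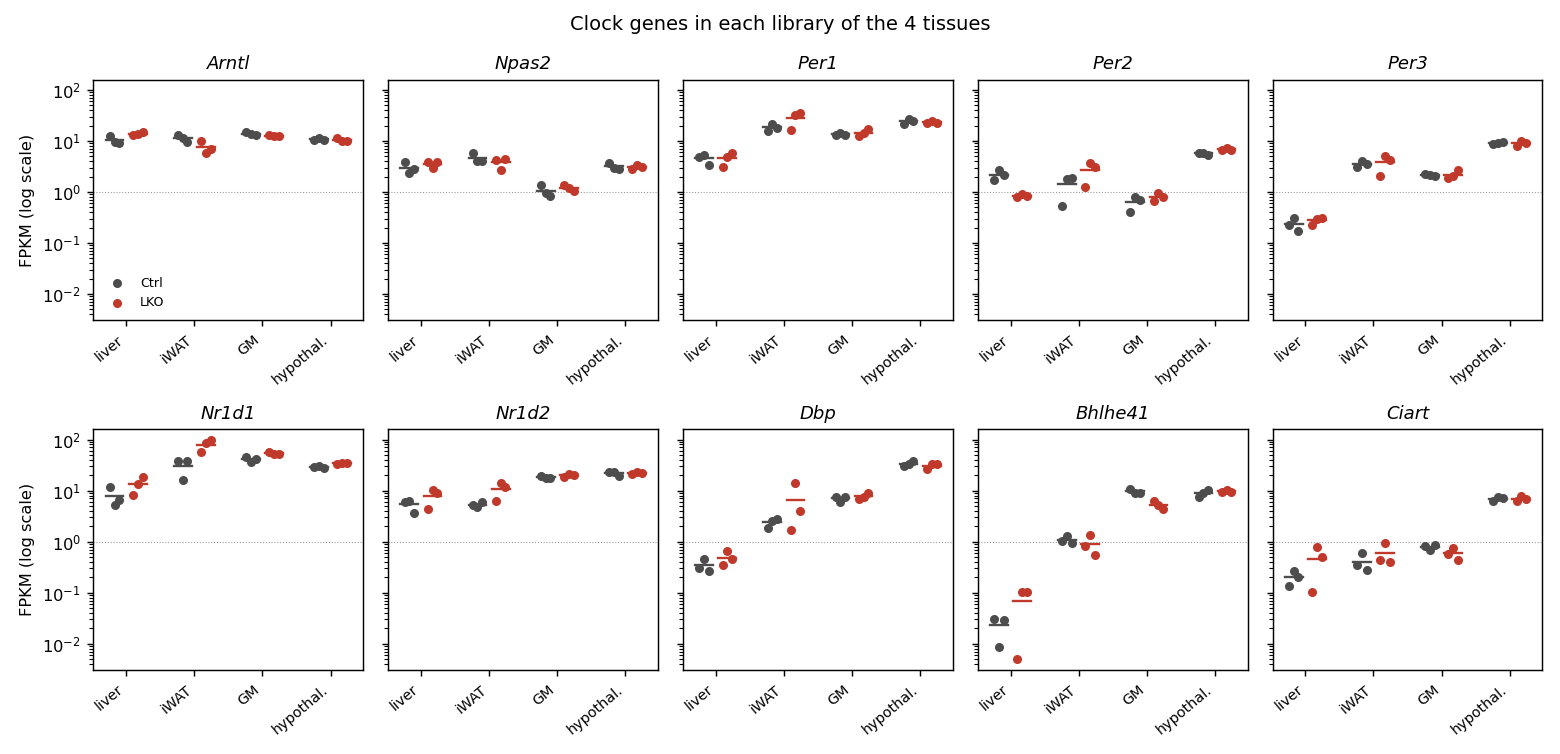
FPKM on a log axis of the 10 clock genes in each library of liver, iWAT, GM and hypothalamus (hypothal.), with Ctrl in grey, LKO in red and a bar at the mean of 3 libraries. The dotted line marks 1 FPKM, and *Bhlhe41* in the liver of LKO 1, listed at 0, is drawn at 0.005. *Per2* in liver and *Bhlhe41* in GM have all LKO libraries below all Ctrl libraries, and *Nr1d1* in iWAT has all LKO libraries above all Ctrl libraries.

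In the liver, where *Crif1* was deleted, *Per2* was under 1 FPKM in all LKO mice and above it in all Ctrl mice, and the activator *Arntl* lay above its Ctrl level by about as much as the typical gene of the tissue, short of the fold limit. The repressors *Nr1d1* and *Nr1d2* varied widely between livers of both genotypes. Genotypes were compared within a tissue by limma on log2(FPKM + 1), and a gene was tested where 3 or more of the 6 libraries reached 1 FPKM. The nominal criterion asked for a 1.5-fold change in either direction and an unadjusted p under 0.05. For the adjusted criterion the p was corrected by Benjamini-Hochberg for the number of genes tested. In liver 6 members passed this filter, and 1 of them, *Per2*, which passed the filter only through the Ctrl livers, passed both criteria, while 28.9% of all 10956 genes tested passed the nominal and 27.4% the adjusted criterion. The share of all genes that passed in the lower direction was 3.75% (nominal) and 3.5% (adjusted), and in the higher direction 25.2% and 23.9%. The median log2 fold change of all liver genes was 0.33 and that of the 6 members 0.29. After median-ratio scaling the 2 medians were 0.02 and -0.01.

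*Per2* was at 1.68, 2.67 and 2.12 FPKM in the Ctrl livers and at 0.790, 0.912 and 0.844 FPKM in the LKO livers. Every LKO liver lay below every Ctrl liver, as for 8.1% of all genes, and below 1 FPKM. The log2 fold change was -0.76 with a standard error of 0.13 (limma adjusted p = 0.0063), it was -0.97 after median-ratio scaling, and it was -1.23 with a pseudocount of 0.1 and -1.26 with quantile normalization. Because of the filter, *Per2* was not tested when a Ctrl library was left out. In the fit without a filter it passed both criteria (limma unadjusted p = 0.00125), as did 19.2% (nominal) and 15.9% (adjusted) of the 17883 genes of that fit.

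*Arntl* was at 12.2, 9.57 and 9.22 FPKM in Ctrl and at 13.2, 13.6 and 14.8 FPKM in LKO livers. The LKO livers lay above the Ctrl livers without overlap, as did those of 53% of all genes, and 61.1% of all genes did not overlap in either direction. The log2 fold change of 0.40 (standard error 0.13, limma adjusted p = 0.044) did not reach the fold limit, and it was 0.06 after median-ratio scaling. *Npas2* was at 3.78, 2.36 and 2.85 FPKM in Ctrl and at 3.84, 2.95 and 3.82 FPKM in LKO livers, and the groups overlapped. Its log2 fold change was 0.19 (95% interval -0.19 to 0.57) and changed sign to -0.09 with median-ratio scaling.

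*Nr1d1* was at 11.9, 5.17 and 6.45 FPKM in Ctrl and at 8.12, 13.3 and 18.7 FPKM in LKO livers. The groups overlapped because Ctrl 1 was the highest of its group and LKO 1 the lowest, and the log2 fold change of 0.71 had a 95% interval of -0.11 to 1.52 (limma adjusted p = 0.129). *Nr1d2* was at 5.99, 6.35 and 3.71 FPKM in Ctrl and at 4.27, 10.4 and 8.78 FPKM in LKO livers, again with LKO 1 lowest among LKO livers (log2 fold change 0.43, 95% interval -0.30 to 1.15). After median-ratio scaling the log2 fold changes were 0.37 for *Nr1d1* and 0.11 for *Nr1d2*. Without LKO 1, both genes passed both criteria, with log2 fold changes of 1.00 for *Nr1d1* and 0.76 for *Nr1d2*, as did 37.5% (nominal) and 37.4% (adjusted) of all genes. Some other omissions made them smaller, down to 0.44 for *Nr1d1* without LKO 3 and to 0.20 for *Nr1d2* without LKO 2 (0.22 without Ctrl 3). Without Ctrl 1, *Nr1d1* passed the nominal criterion with a log2 fold change of 1.01, as did 28.6% of all genes. *Per1* was at 4.88, 5.37 and 3.40 FPKM in Ctrl and at 3.02, 4.92 and 5.71 FPKM in LKO livers, with overlapping groups and a log2 fold change of -0.02 (95% interval -0.55 to 0.52), which was -0.32 after median-ratio scaling.

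The other members were too low in liver to be tested. *Per3* was between 0.170 and 0.314 FPKM, *Dbp* between 0.262 and 0.645 FPKM and *Ciart* between 0.105 and 0.768 FPKM over the 6 livers. *Bhlhe41* did not exceed 0.104 FPKM in any liver and was listed at 0 in LKO 1.

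Some markers of each of the lists for hepatocytes, epithelium, adipocytes and blood moved with the genotype in the liver. Of 5 hepatocyte markers, *Cyp2e1* (-1.50) and *Serpina1a* (-0.92) were lower by both criteria and *Apoa1* (-0.71) by the nominal one, as log2 fold changes, while *Alb* (0.05) and *Ttr* (-0.15) passed neither. The epithelial markers *Krt8* (1.76), *Krt18* (1.60) and *Epcam* (0.66) were higher by both criteria, *Epcam* having passed the filter through the LKO livers alone and coming to 0.47 after median-ratio scaling, and *Csn2* and *Wap* were listed at 0. The epithelial list, drawn up for mammary epithelium, summed to 191.7 to 283.7 FPKM in Ctrl and 668.5 to 782.6 FPKM in LKO livers. It was thus expressed in Ctrl livers and is not taken to mark a cell type apart from hepatocytes. The adipocyte markers *Cidec* (2.58) and *Fabp4* (0.84) were higher by both criteria, and this list of 5 summed to 12.9 to 14.4 FPKM in Ctrl and 33.4 to 35.6 FPKM in LKO livers, with *Adipoq* and *Plin1* at no more than 0.278 FPKM. Of the blood markers, *Alas2* was lower by the nominal criterion (-0.86), and the sums were 258.8 to 420.1 and 240.7 to 359.7 FPKM. Their part in the values of the clock genes was not tested.

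In iWAT, the repressors *Nr1d1* and *Nr1d2* were higher in LKO mice by the nominal criterion. The activators *Arntl* and *Npas2* had the opposite sign, with overlapping groups. Of the 10 members, 9 passed the filter on low values. The nominal criterion was passed by 2 of them, both higher in LKO mice, against 3.25% of all 12288 genes tested (1.95% higher and 1.29% lower). None of them passed the adjusted criterion, which 0% of all genes passed in limma, whereas 1842 genes had an unadjusted p under 0.05. The median log2 fold change was 0.54 over the 9 members and -0.01 over all genes.

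*Nr1d1* was at 37.9, 15.96 and 37.1 FPKM in the Ctrl and at 56.5, 84.3 and 96.2 FPKM in the LKO fat pads. Each LKO library exceeded each Ctrl library, and Ctrl 2 was far below the other Ctrl libraries. The log2 fold change was 1.41 with a standard error of 0.36 (limma unadjusted p = 0.00614, adjusted p = 0.161), and it was between 1.02 and 1.64 when 1 library was left out. *Nr1d2* was at 5.18, 4.79 and 5.95 FPKM in Ctrl and at 6.33, 14.0 and 11.6 FPKM in LKO libraries. The groups did not overlap, although LKO 1 was close to the Ctrl libraries, and the log2 fold change was 0.83 with a standard error of 0.26 (limma unadjusted p = 0.0158, adjusted p = 0.221). Without LKO 3 it was 0.74 and missed the nominal criterion. These were the 2 members without overlap in iWAT, where 20.8% of all genes did not overlap and 9.76% had all LKO above all Ctrl libraries.

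*Arntl* was at 13.01, 11.2 and 9.54 FPKM in Ctrl and at 9.83, 5.72 and 7.04 FPKM in LKO libraries. LKO 1 reached above Ctrl 3, so the groups overlapped, and the log2 fold change of -0.54 (standard error 0.19, limma unadjusted p = 0.0271, adjusted p = 0.266) did not reach the fold limit. *Arntl* passed the nominal criterion in 3 of 13 alternative fits. These were a pseudocount of 0.1 (-0.60) and the fits without Ctrl 3 (-0.64) or LKO 1, in which 4.79%, 3.32% and 4.92% of all genes passed. *Npas2* was at 5.84, 4.10 and 4.08 FPKM in Ctrl and at 4.30, 2.73 and 4.45 FPKM in LKO libraries, with a log2 fold change of -0.24 (95% interval -0.69 to 0.21) and overlapping groups.

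*Per1* was at 15.8, 21.6 and 17.6 FPKM in Ctrl and at 16.3, 32.8 and 35.8 FPKM in LKO libraries. LKO 2 and LKO 3 were above all Ctrl libraries and LKO 1 was among them, with a log2 fold change of 0.54 (95% interval -0.16 to 1.23). *Per2* was at 0.538, 1.83 and 1.85 FPKM in Ctrl and at 1.25, 3.68 and 3.05 FPKM in LKO libraries. Replicate 1 was the lowest of both groups, the groups overlapped, and the log2 fold change was 0.60 (95% interval -0.24 to 1.43). *Per3* was at 3.09, 4.01 and 3.55 FPKM in Ctrl and at 2.07, 5.15 and 4.22 FPKM in LKO libraries, and LKO 1 lay below and LKO 2 and LKO 3 above all Ctrl libraries, with a log2 fold change of 0.03.

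*Dbp* was at 1.88, 2.55 and 2.73 FPKM in Ctrl and at 1.67, 13.8 and 3.97 FPKM in LKO libraries. The value of LKO 2 stood far above every other library of iWAT and LKO 1 was the lowest, so that the log2 fold change of 0.79 had a 95% interval of -0.58 to 2.15. It was 0.11 without LKO 2 and 1.35 without LKO 1. *Bhlhe41* was at 1.01, 1.29 and 0.946 FPKM in Ctrl and at 0.839, 1.35 and 0.548 FPKM in LKO libraries, with overlapping groups (log2 fold change -0.14, 95% interval -0.55 to 0.26). *Ciart* was under 1 FPKM in all 6 libraries (0.284 to 0.933) and was not tested.

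The number of members that passed in iWAT moved most with the library LKO 1. LKO 1 and Ctrl 1 were the deepest libraries of iWAT, at 7.58 and 7.95 gigabases, against 4.63 to 5.22 for the others. The part of depth in these values was not tested. Without LKO 1, 6 members passed the nominal criterion, as did 4.92% of the 12193 genes then tested. These were *Arntl* (-0.73), *Dbp* (1.35), *Nr1d1* (1.64), *Nr1d2* (1.13), *Per1* (0.88) and *Per2* (0.91), given as log2 fold changes, and *Nr1d2* also passed the adjusted criterion, as did 0.869% of all genes. Some other omissions made the values smaller, down to -0.38 for *Arntl* without LKO 2, 0.33 for *Per1* without LKO 3 and 0.30 for *Per2* without Ctrl 1, none of which passed. Blood markers differed between the groups as well. Of the 5, 3 (*Alas2*, *Hba-a1* and *Hba-a2*) were higher in LKO by the nominal criterion, and the 5 summed to 477.4 to 1308 FPKM in Ctrl and 852.8 to 1751 FPKM in LKO libraries. *Hbb-bs* was at 217.0, 585.0 and 453.6 FPKM in Ctrl and at 19.55, 27.11 and 793.8 FPKM in LKO libraries (log2 fold change -2.33, 95% interval -5.56 to 0.90), and *Hbb-bt* was under 1 FPKM. The globin genes have near-identical copies, so that the level of a single copy is uncertain. Of the adipocyte markers, *Lep* was lower by the nominal criterion (-1.29), and of the hepatocyte markers *Alb* was higher (1.39), from 12.8 to 23.8 FPKM in Ctrl to 35.2 to 49.2 FPKM in LKO libraries, both without overlap. Their part in the values of the clock genes was not tested.

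In GM, *Bhlhe41*, a repressor of ARNTL-driven transcription, was lower in LKO mice by the nominal criterion. The filter was passed by 8 members, and 1 of them passed the nominal criterion, against 0.901% of all 10877 genes tested (0.322% lower and 0.579% higher). None passed the adjusted criterion, which 0% of all genes passed in limma, whereas 743 genes had an unadjusted p under 0.05.

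*Bhlhe41* was at 10.9, 9.09 and 9.14 FPKM in the Ctrl and at 6.14, 5.20 and 4.46 FPKM in the LKO muscles. All LKO libraries lay below all Ctrl libraries. The log2 fold change was -0.78 with a standard error of 0.12 (limma unadjusted p = 0.000309, adjusted p = 0.336), it was -0.75 after median-ratio scaling, and it passed the nominal criterion in all 13 alternative fits. *Nr1d1* was at 45.0, 36.4 and 41.2 FPKM in Ctrl and at 58.0, 52.5 and 52.2 FPKM in LKO muscles. The LKO libraries were again without overlap, now above the Ctrl libraries, and the log2 fold change of 0.40 (standard error 0.09, limma unadjusted p = 0.00263, adjusted p = 0.443) did not reach the fold limit. *Bhlhe41* and *Nr1d1* were the 2 members without overlap, and 11.6% of all genes did not overlap (7.2% with LKO below and 4.38% with LKO above Ctrl).

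The other tested members overlapped between the genotypes in GM. *Arntl* was at 15.0, 13.4 and 12.96 FPKM in Ctrl and at 13.3, 12.4 and 12.2 FPKM in LKO muscles (log2 fold change -0.12, 95% interval -0.30 to 0.07). *Npas2*, *Per1*, *Per3*, *Nr1d2* and *Dbp* had log2 fold changes between 0.02 and 0.12, and the widest of their intervals ran from -0.18 to 0.43 for *Npas2*. *Per2* (0.396 to 0.967 FPKM) and *Ciart* (0.442 to 0.849 FPKM) were under 1 FPKM in all 6 muscles and were not tested.

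Markers of other tissues varied between the muscles. Adipocyte markers summed to 234.4 to 525.6 FPKM in Ctrl and 259.1 to 684.8 FPKM in LKO, hepatocyte markers to 44.1 to 263.1 and 18.7 to 119.9 FPKM, blood markers to 68.0 to 199.2 and 124.6 to 215.4 FPKM, and lymph node markers to 0.086 to 5.19 and 0.0522 to 22.2 FPKM. Of these, *Hba-a2* passed the nominal criterion (4.35), in a pair of near-identical genes whose other copy, *Hba-a1*, had a log2 fold change of -2.04. Their part in the value of *Bhlhe41* was not tested.

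In the hypothalamus, which holds the central clock, every member was measured and none passed the nominal criterion, while 0.333% of all 13828 genes passed it (0.166% higher and 0.166% lower) and 0.0217%, 3 genes, passed the adjusted one. For *Nr1d1* and *Per2* all LKO libraries lay above all Ctrl libraries. *Nr1d1* was at 29.2, 30.5 and 27.4 FPKM in Ctrl and at 33.6, 34.1 and 34.6 FPKM in LKO libraries, and the groups did not overlap (log2 fold change 0.23, standard error 0.06, limma unadjusted p = 0.00598, adjusted p = 0.999). *Per2* was at 5.83, 5.81 and 5.41 FPKM in Ctrl and at 6.78, 7.16 and 6.57 FPKM in LKO libraries, likewise without overlap (log2 fold change 0.23, standard error 0.07, limma unadjusted p = 0.0101, adjusted p = 0.999). Both differences were under the fold limit, and 9.7% of all genes did not overlap in this tissue (4.74% with LKO above Ctrl).

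The groups of the other 8 members overlapped in the hypothalamus. *Arntl* was at 10.4, 11.4 and 10.4 FPKM in Ctrl and at 11.2, 9.72 and 10.02 FPKM in LKO libraries, and its log2 fold change was -0.05 (95% interval -0.23 to 0.12). *Dbp* was at 29.9, 32.8 and 37.5 FPKM in Ctrl and at 26.1, 33.0 and 32.5 FPKM in LKO libraries, and its log2 fold change was -0.13 (95% interval -0.40 to 0.15). *Bhlhe41* had a log2 fold change of 0.12 (95% interval -0.14 to 0.37), and those of *Npas2*, *Per1*, *Per3*, *Nr1d2* and *Ciart* were between -0.06 and 0.02.

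The hypothalamic libraries held transcripts of the suprachiasmatic nucleus. The 6 markers listed for it summed to 524.8 to 828 FPKM in Ctrl and 692.8 to 731.2 FPKM in LKO libraries. One of them, *Vip*, passed the nominal criterion in the higher direction. The 4 pituitary markers that were tested were also higher in LKO by the nominal criterion and did not overlap between the groups, *Lhb* having passed the filter through the LKO libraries alone. The part of either in the values of *Nr1d1* and *Per2* was not tested.

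**Figure D2:**
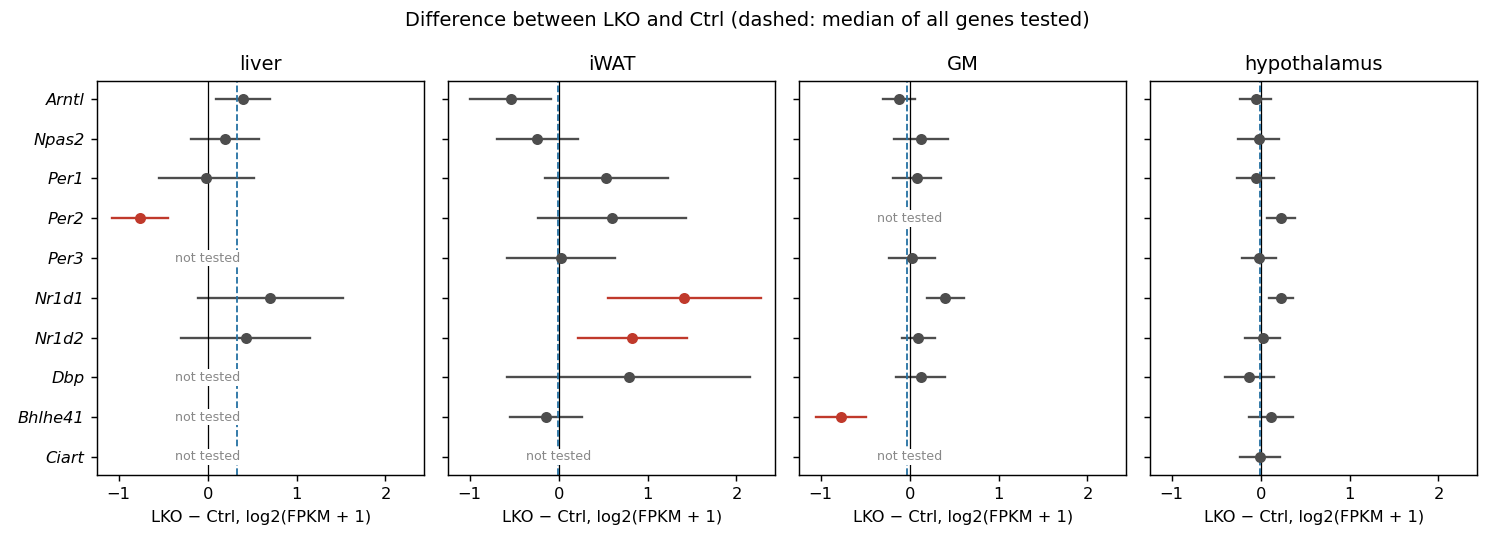
Difference between LKO and Ctrl mice of each clock gene in each tissue on the log2(FPKM + 1) scale, with limma's 95% interval. Red marks the nominal criterion (1.5-fold change and unadjusted p under 0.05), the dashed line the median of all genes tested in the tissue (0.33 in liver), and "not tested" a gene that reached 1 FPKM in fewer than 3 libraries. *Per2* in liver (-0.76) and *Bhlhe41* in GM (-0.78) lie on the lower side, *Nr1d1* (1.41) and *Nr1d2* (0.83) in iWAT on the higher side, and the points of the hypothalamus lie near 0.

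A single limma fit to the 24 libraries, with an F test of the interaction of genotype and tissue, asked whether the effect of the liver deletion differed between tissues. It tested genes that reached 1 FPKM in 3 or more of the 24 libraries, so that a gene too low in some tissues could enter. The fit takes 1 spread per gene over all tissues, which its p-values assume to be equal. For *Per2* the SD around the group means was 0.536 in iWAT and 0.053 in hypothalamus. *Bhlhe41*, near 0 in liver, adds libraries of little spread. The interaction was called with an adjusted p under 0.05 for *Bhlhe41* (limma adjusted p = 0.00375), *Arntl* (limma adjusted p = 0.00784) and *Per2* (limma adjusted p = 0.0142), that is 3 of the 10 members, and for 33.5% of all 15849 genes tested. The effect on *Arntl* was 0.94 lower in iWAT than in liver on the log2 scale (limma adjusted p = 0.00127) and 0.52 lower in GM than in liver (limma adjusted p = 0.0465). With median-ratio scaling within each tissue, the adjusted p of the F test for *Arntl* was 0.111, so that the call did not stand on this scale.

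The effect on *Per2*, which was under 1 FPKM in all 6 muscles and in the LKO livers, was 1.35 higher in iWAT, 0.92 higher in GM and 0.99 higher in hypothalamus than in liver (limma adjusted p = 0.00306, 0.0321 and 0.0229). *Per2* passed the filter of the liver only through the Ctrl livers and was not tested within GM. These contrasts therefore rest in part on values under 1 FPKM. Of all genes, 34.7%, 32.8% and 32.1% differed from liver by this test in iWAT, GM and hypothalamus. Its F test had an adjusted p of 0.0511 when Ctrl 2 of the liver was left out and of 0.00592 with median-ratio scaling. The effect on *Bhlhe41* was 0.84 lower in GM than in liver (limma adjusted p = 0.00275), where its level was near 0. Against the tissues that express it, the effect in GM was 0.63 lower than in iWAT (limma adjusted p = 0.159) and 0.89 lower than in hypothalamus (limma adjusted p = 0.132), pairs in which 0.41% and 0.0505% of all genes were called. Its F test had an adjusted p of 0.0501 with a pseudocount of 0.1. For *Nr1d1*, the interaction was not called (limma adjusted p = 0.119), so the larger fold change in iWAT was not shown to differ from those of the other tissues.

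The spread between replicates of the clock genes was wide in iWAT. It was measured by the residual SD of log2(FPKM + 1) around the group means, and it is described here without a test. In iWAT all 9 tested members lay above the median of all genes, and their median residual SD was 0.393 against 0.135 for all genes. *Dbp* reached 0.895 there, at percentile 99.4 of all genes, followed by *Nr1d1* (97.6), *Per2* (97.4) and *Per1* (95.6). In liver *Nr1d1* (percentile 97.1) and *Nr1d2* (95.5) were the most variable members, while *Arntl* was at percentile 40.6. The median of the 6 tested members in liver was 0.277 against 0.176 for all genes.

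In GM and hypothalamus the spread of the members was nearer to that of other genes. Their median residual SD was 0.143 against 0.120 for all genes in GM, with 6 of 8 above the median. In hypothalamus it was 0.115 against 0.107, with 6 of 10 above the median. *Per2* and *Nr1d1* were among the least variable members there, at percentiles 12.6 and 13.7. *Nr1d1* lay near opposite ends of the range in liver and in hypothalamus.

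**Figure D3:**
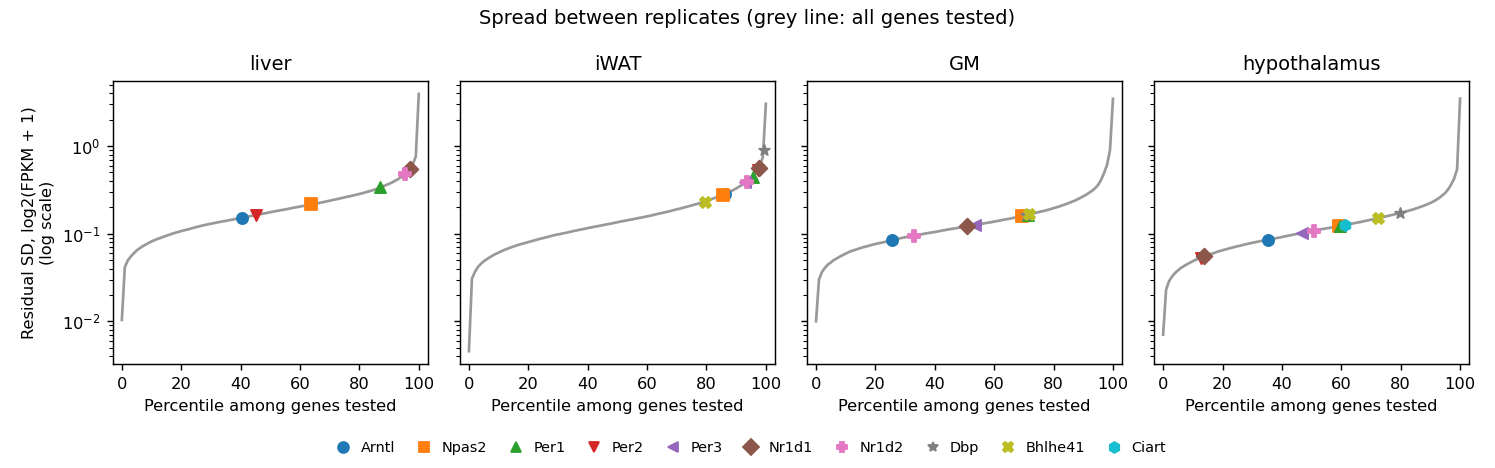
Residual SD of log2(FPKM + 1) around the group means (log axis) against its percentile among all genes tested in the tissue, with 1 symbol per clock gene and the grey line for all genes. In iWAT all 9 tested members lie at percentile 79.4 or higher and *Dbp* at 99.4, and in GM and hypothalamus the highest lie at 71.6 and 79.8.

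Within groups, the widest deviations were those of *Dbp* in LKO 1 and LKO 2 of iWAT. In LKO 1 of iWAT, *Arntl* was 0.37 above the mean of its group on the log2 scale, whereas *Per1* (-0.69), *Nr1d2* and *Dbp* were below theirs. In LKO 2 the signs were turned, with *Arntl* 0.32 lower than its group mean and *Dbp* far above it. *Nr1d1* did not follow this contrast in the Ctrl libraries of iWAT, where in Ctrl 1 it was above its group mean (0.41), as were *Arntl* (0.20) and *Npas2* (0.28), and in Ctrl 2 it was far below it (-0.79). Over the 8 groups of 3 libraries, the library numbered 1 was the highest for *Arntl* in 6 groups and for *Npas2* in 6. That library was the lowest in 6 of 8 groups for each of *Per1*, *Per2*, *Per3* and *Dbp*, in 4 for *Nr1d2* and *Ciart* and in 3 for *Nr1d1* and *Bhlhe41*. These counts include groups under 1 FPKM, such as *Per2* in GM and *Per3* and *Dbp* in liver. They were not made for all genes, so they cannot show a trait of the clock genes. The labels do not say that a number marks a mouse, a day or a position in a series, and replicates of a group have no order.

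Over the deviations of all 24 libraries from their group means, *Dbp* had a Pearson's r of -0.739 with *Arntl*, -0.593 with *Npas2*, 0.612 with *Nr1d2*, 0.589 with *Per1* and 0.174 with *Nr1d1*. The r of *Arntl* was 0.663 with *Npas2*, 0.096 with *Nr1d1*, -0.322 with *Nr1d2* and -0.377 with *Per1*. *Per2*, *Per3*, *Bhlhe41* and *Ciart* were not compared, since their mean was under 1 FPKM in at least 1 tissue. *Dbp* was kept although its mean was under 1 FPKM in liver. Among 9005 genes with a mean of at least 1 FPKM in each tissue, the genes most like *Dbp* were *Tef* (r = 0.894), which encodes another PAR bZIP factor, then *Prpf18* (0.810), *Pkdcc* (0.785), *Tsc22d3* (0.750) and *Pcmtd2* (0.744). Those most like *Arntl* were *Mrps22* (0.901), *Mocs2* (0.848), *Slc16a1* (0.844), *Tfg* (0.835) and *Plin2* (0.833). The points share libraries, depth and, possibly, mice, and the iWAT libraries with the widest deviations weigh most in these descriptions.

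**Figure D4:**
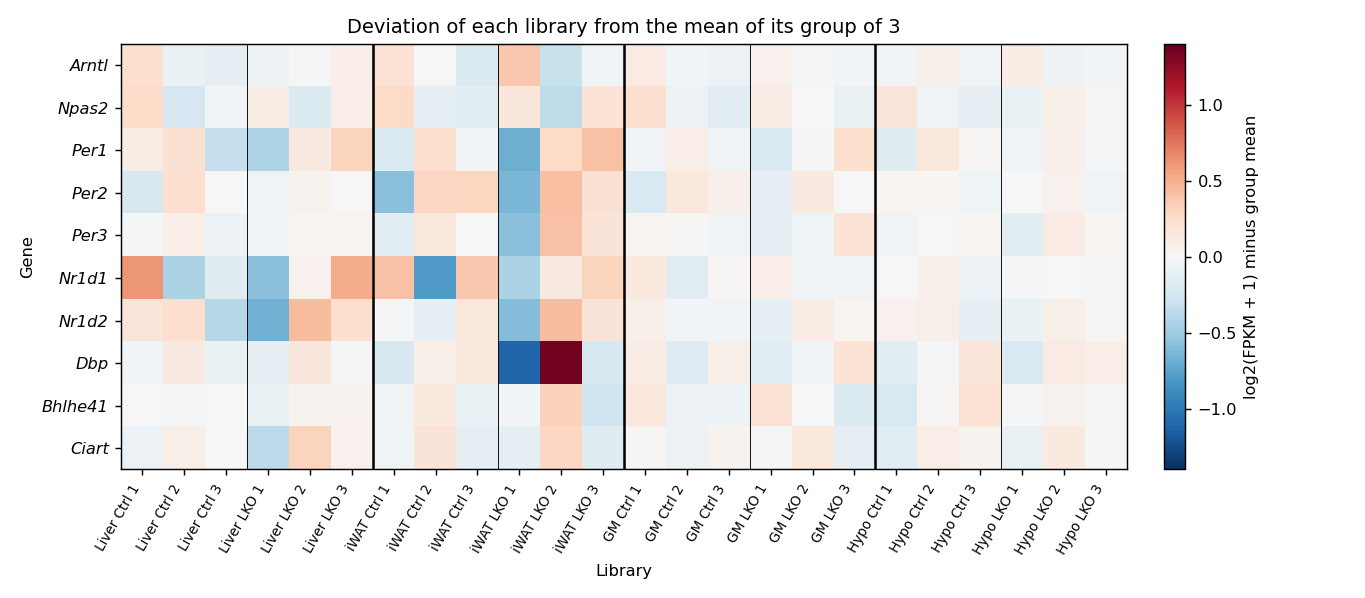
Deviation of each of the 24 libraries from the mean of its group of 3 on the log2(FPKM + 1) scale, for the 10 clock genes (rows), with blue for below and red for above the group mean. Thick lines separate tissues and thin lines genotypes. LKO 1 and LKO 2 of iWAT carry the strongest colours, with *Arntl* and *Dbp* on opposite sides of 0, and the hypothalamus is the palest block.

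Other genes of the clock, from a list of 19, were compared to place the members. In liver 16 were tested, of which *Csnk1e* (1.16), *Bhlhe40* (0.88) and *Rora* (0.72) were higher and *Hlf* (-0.77) and *Tef* (-0.61) lower in LKO mice by both criteria, as log2 fold changes. These are 5 of 16, where 27.4% of all liver genes passed the adjusted criterion. *Csnk1e* encodes a kinase of the period proteins, *Bhlhe40* a paralogue of BHLHE41, *Rora* an activator of *Arntl*, and *Hlf* and *Tef* the PAR bZIP partners of *Dbp*. *Hlf* was at 6.13, 6.10 and 6.16 FPKM in Ctrl and at 3.46, 3.25 and 2.84 FPKM in LKO livers, and *Tef* at 8.27, 10.4 and 8.47 FPKM in Ctrl and at 5.40, 5.84 and 5.46 FPKM in LKO livers. The LKO livers lay below the Ctrl livers for both. After median-ratio scaling the log2 fold changes were -1.06 for *Hlf*, -0.93 for *Tef* and 0.87 for *Csnk1e*, while *Bhlhe40* (0.54) and *Rora* (0.39) came under the fold limit.

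In the other tissues, 1 gene of this list passed the nominal criterion, out of 17 tested in iWAT, where 3.25% of all genes passed it. It was *Nfil3*, a repressor at D-boxes, which was at 19.8, 17.4 and 13.9 FPKM in Ctrl and at 10.7, 8.54 and 13.5 FPKM in LKO libraries of iWAT (log2 fold change -0.60, limma adjusted p = 0.214). Of 15 tested in GM and 19 in hypothalamus, 0 passed it, against 0.901% and 0.333% of all genes, shares at which lists of this size give few calls. *Cry1*, a core repressor with the period proteins, had overlapping groups in liver and hypothalamus. In iWAT its LKO libraries lay below the Ctrl libraries (log2 fold change -0.22, limma unadjusted p = 0.0762), where 20.8% of all genes did not overlap. In GM it was at 7.92, 7.11 and 6.90 FPKM in Ctrl and at 6.35, 4.46 and 4.78 FPKM in LKO libraries, without overlap, as for 7.2% of all genes in this direction (log2 fold change -0.43, limma unadjusted p = 0.00991, adjusted p = 0.563). *Cry2* had all LKO livers below all Ctrl livers (log2 fold change -0.27, limma adjusted p = 0.0848), as for 8.1% of all genes. *Clock* had log2 fold changes of 0.07 in liver, -0.11 in iWAT and -0.07 in GM. In hypothalamus *Clock* was at 0.149 FPKM in Ctrl 2 and at 0.244 FPKM in LKO 2, against 6.35 to 8.04 FPKM in the other 4 libraries, and no fold change is given for it there.

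Of 8 transcripts known to follow the clock, 4 passed both criteria in liver, where 28.9% of all genes passed the nominal and 27.4% the adjusted one. *Wee1*, a cell cycle kinase (1.23), *Por*, the cytochrome P450 reductase (1.18), and *Cyp7a1*, the rate-limiting enzyme of bile acid synthesis (0.84), were higher in LKO livers, as log2 fold changes. *Wee1* passed the filter only through the LKO livers. *Cyp7a1* came to 0.50, under the fold limit, after median-ratio scaling. *Elovl3*, a fatty acid elongase, was at 441.3, 305.3 and 451.1 FPKM in Ctrl and at 33.4, 36.2 and 12.8 FPKM in LKO livers, all of the latter far below the former (log2 fold change -3.92, limma adjusted p = 0.00103). In iWAT *Elovl3* was higher by the nominal criterion (1.26), from 0 to 0.548 FPKM in Ctrl to 1.04 to 3.91 FPKM in LKO libraries, and it passed the filter only through the latter. In GM the deadenylase *Noct* was higher by this criterion (0.64), and in hypothalamus none of 6 tested passed. The shares of all genes were 3.25%, 0.901% and 0.333% in these tissues, so that 0 or 1 call in such a list says little about it.

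*Per1* and *Per2* also respond to glucocorticoids and to immediate early signals, and 4 transcripts of each kind are given beside them. Among the glucocorticoid-responsive transcripts, *Zbtb16* was higher by the nominal criterion in liver (2.16), iWAT (1.86) and hypothalamus (1.46), as log2 fold changes. The adjusted p of *Zbtb16* in limma was 0.204 in iWAT and 0.13 in hypothalamus. *Fkbp5* was higher in liver (1.21) and hypothalamus (0.59), with overlapping groups in both (limma adjusted p = 0.0536 and 0.999). *Sgk1* was higher (1.87) and *Tsc22d3* lower (-1.82) in liver. Of all genes, 25.2% in liver, 1.95% in iWAT and 0.166% in hypothalamus were higher by the nominal criterion, and 3.75% were lower in liver. In iWAT, *Zbtb16* was at 16.5, 7.22 and 37.0 FPKM in Ctrl and at 41.0, 77.0 and 79.0 FPKM in LKO libraries, with LKO 1 lowest of its group, as for *Per1*. The immediate early genes *Egr1*, *Fos*, *Junb* and *Nr4a1* were all higher in liver by the nominal criterion, with log2 fold changes of 0.73 to 2.82, where 25.2% of all genes were higher by it. *Fos* had passed the filter through the LKO livers alone, and *Nr4a1* came to 0.51, under the fold limit, after median-ratio scaling. By the same criterion *Egr1* was higher in iWAT (0.69) and GM (0.91). In hypothalamus *Fos* (-0.68) and *Nr4a1* (-0.63) were lower. The part of these signals in the values of the period genes was not tested.

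The library kit does not mark strand, and 3 members overlap a gene on the opposite strand, where reads cannot be assigned by strand. *Nr1d1* overlaps *Thra* by 1075 bases, *Dbp* overlaps *Sphk2* by 741 bases, and *Ciart* overlaps *C920021L13Rik* along 3724 bases. The values of these members may include reads of the partner.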

How the data were processed

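RNA of liver, iWAT, GM and hypothalamus from Ctrl and LKO mice was sequenced as 100 nt paired ends, 3 libraries per group. The authors deposited a joined table of FPKM per gene and, for each library, a table with the mean coverage of each gene, its FPKM and its TPM, which sum to the same total in every library. The submitters' processing notes name mm10, FastQC 0.11.5, Trimmomatic 0.32, HISAT2 2.0.5, Bowtie2 2.2.6, STAR 2.5.2b and StringTie 1.3.3b, with no role or order. The deposited FPKM are scaled to the depth of the library but not between libraries, so a change in a few abundant transcripts moves all others. The deposited coverage signal was used only to infer depth, from the ratio of FPKM to coverage, as 4.45 to 8.09 gigabases per library. Read counts were not used here, so that counting error of a gene could not be given.

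For each tissue, 3 LKO were compared with 3 Ctrl libraries on log2(FPKM + 1) by limma 3.58.1 (lmFit, eBayes with trend, R 4.3.3), for genes that reached 1 FPKM in 3 or more of 6 libraries. With a pseudocount of 1, the fold change of a low gene is understated. Both criteria required a 1.5-fold change, the nominal one with an unadjusted p under 0.05 and the adjusted one with that p after Benjamini-Hochberg adjustment for the genes of the tissue. Tests are two-sided. An exact permutation test of 3 against 3 cannot give a p under 0.1. Libraries of different tissues were treated as independent in the joint fits. The functions were tested on simulated data. The members, the gene lists and the alternatives (pseudocount 0.1, no filter, deposited TPM, median-ratio scaling, quantile normalization, replicate block, all 24 libraries in 1 fit, each library left out) were chosen with earlier results of these data known. The text names the 10 members in every tissue, *Clock*, *Cry1*, *Cry2* and the listed clock, output, glucocorticoid and immediate early genes past the nominal criterion, and the 5 genes most correlated with *Arntl* and with *Dbp*. Marker lists of lymph node, mammary epithelium and choroid plexus were read in the same way. Their sums were at most 11.7 FPKM in iWAT or hypothalamus, and the epithelial list is given with the liver and the lymph node list with GM. Tables were read and plots drawn with Python 3.11.15, pandas 2.3.3 and matplotlib 3.10.9.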

Additional observations from a re-analysis of the deposited data

Results flagged for a closer look

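The effect of the liver deletion on 3 clock genes differed between the 4 tissues by the F test of the interaction of genotype and tissue in limma, and the test was run for all 10 members. The interaction was called for 33.5% of all 15849 genes, so that 3 of 10 is no more than the general share. The fit takes 1 spread per gene, so its p-values do not allow for spreads that differ between tissues. For *Arntl* the adjusted p was 0.00784, with log2 fold changes of 0.40 in liver and -0.54 in iWAT, and of -0.12 and -0.05 in GM and hypothalamus. It ranged from 0.00057 to 0.135 over 29 alternative fits and was under 0.05 in 27 of them, the exceptions being median-ratio scaling (0.111) and quantile normalization (0.135).

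For *Bhlhe41* the adjusted p was 0.00375, with log2 fold changes of -0.14 in iWAT, -0.78 in GM and 0.12 in hypothalamus, and levels of at most 0.104 FPKM in liver. It was under 0.05 in 28 of 29 alternative fits and 0.0501 with a pseudocount of 0.1. For *Per2* the adjusted p was 0.0142, with log2 fold changes of -0.76 in liver, 0.60 in iWAT and 0.23 in hypothalamus, and levels under 1 FPKM in all muscles and in the LKO livers. It was under 0.05 in 28 of 29 alternative fits and 0.0511 without Ctrl 2 of the liver.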

How the results depend on the processing

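The counts of members called moved by more than 1.5 times under these alternatives. In liver, where 1 member passed each criterion, 2 passed the nominal one with the deposited TPM (40.9% of all genes), and 2 passed each with all 24 libraries in 1 fit (*Nr1d1* added, 29.1% and 28.9% of all genes). Leaving out 1 library gave 0 to 3 by either criterion, with 0 nominal calls without Ctrl 2 or Ctrl 3 and 0 adjusted calls without any 1 of the Ctrl libraries, since *Per2* then failed the filter, and 3 without LKO 1 (37.5% and 37.4% of all genes). In iWAT, where 2 passed the nominal and 0 the adjusted criterion, all 24 libraries in 1 fit gave 4 and 1 (3.7% and 2.56% of all genes), and leaving out 1 library gave 1 (without LKO 3) to 6 (without LKO 1, 4.92% of all genes) and 0 to 1. In GM 1 member, *Bhlhe41*, passed the adjusted criterion with all 24 libraries in 1 fit (0.202% of all genes), against 0. Members with an interaction numbered 3, and 2 to 6 when 1 library was left out: 6 without LKO 1 of iWAT (*Nr1d2*, *Per1* and *Dbp* added, 34.6% of all genes) and 5 without LKO 1 of the liver (*Nr1d2* and *Ciart* added, 45.2% of all genes). The called pairs of Ctrl tissues numbered 34 to 39 without 1 library.

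The groups share replicate numbers, which the labels do not say pair mice. Same-numbered pairs of libraries had a Pearson's r of -0.135 to 0.354 in their deviations. In 0 of 4 tissues were all of these above 0.1. The numbers were therefore not taken to pair mice, although this check cannot exclude a pairing. With the replicate block, 3 members passed the nominal criterion in iWAT, *Per2* being added (limma unadjusted p = 0.00195, against 0.134 without the block). Unadjusted p values in limma fell, among others, for *Arntl* (0.0271 to 0.00896) and *Per1* (0.11 to 0.0419), which stayed under the fold limit. They rose for *Nr1d1* (0.00614 to 0.0114) and *Nr1d2* (0.0158 to 0.0172). The block moved the count of all genes called in GM from 98 to 145, and no other count of members changed.

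Of 33 fold changes of members, 11 changed sign under at least 1 alternative, none of them called. In liver *Npas2* (0.19) was -0.086 with median-ratio scaling and -0.23 with quantile normalization, and *Per1* (-0.02) was 0.092 with TPM. *Ciart* in hypothalamus (-0.007) was 0.014 with TPM and 0.0088 with quantile normalization. Leaving out 1 library gave -0.17 to 0.20 for *Per1* in liver, -0.18 to 0.32 for *Per3* and -0.19 to 0.0006 for *Bhlhe41* in iWAT, and -0.032 to 0.19 for *Per1* and -0.073 to 0.090 for *Per3* in GM. In hypothalamus it gave -0.078 to 0.065 for *Npas2*, -0.14 to 0.019 for *Per1*, -0.081 to 0.053 for *Per3*, -0.049 to 0.071 for *Nr1d2* and -0.081 to 0.047 for *Ciart*. The causes were not tested. Members under 1 FPKM, 4 in liver among them, were not compared between genotypes within that tissue.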
